A study of Homo sapiens with 16 samples.

Results

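EBI3 and 4 interleukin genes, IL12A, IL6, IL7 and IL10, were followed in 8 human B-cell lines treated with the solvent DMSO or with AFN700, an inhibitor of IKK-beta, the kinase that releases classical NF-kB. The genes were taken as every probe set that the platform annotation gave to exactly 1 of these 5 symbols. Each symbol had 1 such probe set: 219424_at for EBI3, 207160_at for IL12A, 205207_at for IL6, 206693_at for IL7 and 207433_at for IL10. They are 5 of the 19775 genes that could be named on the array. All 5 were among the 12305 genes tested, which had an intensity above their array's 60th percentile, a level of 21.5 to 31.7, on at least 2 of 16 arrays. EBI3 was above that level on 10 arrays, IL7 on 9, IL12A on 4, and IL6 and IL10 on 2 each.

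The study compared expression in these B-cell lines with and without AFN700. The lines REC-1 and SP49 carry the label sensitive to the kinase inhibitors written as STN and ibrutinib. The other lines, JVM-13, JVM-2, GRANTA-519, HBL-2, Maver-1 and Z-138, carry the label insensitive. That label does not concern AFN700 itself. Every line gave 1 array after 20 h in DMSO at 0.025% and 1 array after 20 h in AFN700 at 5 uM. The medium was DMEM for GRANTA-519 and RPMI for the remaining lines, so GRANTA-519 differs in this under both treatments. The treated JVM-13 array is titled AFN700, while its other label fields read AFN701. With 1 array per line and treatment, a difference within a line has no replicate, and the order of neighbouring lines cannot be set against a spread between cultures. Tests over lines measure the spread between the lines.

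EBI3 encodes a secreted cytokine chain that was found as a gene induced by Epstein-Barr virus in B cells. It pairs with the product of IL27 to form interleukin 27, and with the product of IL12A to form interleukin 35. The IL12A product in turn pairs with that of IL12B to form interleukin 12. IL6, IL7 and IL10 encode cytokines that act alone: interleukin 6 drives plasma cell growth and inflammation, interleukin 7 supports lymphocyte survival, and interleukin 10 restrains inflammation and supports B cells. All of these cytokines signal through JAK kinases and STAT factors, and NF-kB is a known activator of several of their genes. GRANTA-519, JVM-2 and JVM-13 are known to carry Epstein-Barr virus, a property that the labels do not give.

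The 250 bases before the transcription start are shown for the 3 genes whose window held a searched motif and had 1 start in the RefSeq promoter table (build GRCh38.p14, all on the plus strand). These windows were searched on both strands for the NF-kB consensus (kappaB consensus) and the AP-1 site TGANTCA, and matches are in capitals. EBI3 lies at chr19:4229273-4229522, IL12A at chr3:159988585-159988834 and IL6 at chr7:22726950-22727199.
EBI3: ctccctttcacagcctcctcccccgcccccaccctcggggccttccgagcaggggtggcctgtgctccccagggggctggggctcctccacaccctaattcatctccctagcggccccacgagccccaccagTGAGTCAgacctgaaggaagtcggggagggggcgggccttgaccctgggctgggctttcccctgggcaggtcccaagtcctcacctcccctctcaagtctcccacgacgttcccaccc
IL12A: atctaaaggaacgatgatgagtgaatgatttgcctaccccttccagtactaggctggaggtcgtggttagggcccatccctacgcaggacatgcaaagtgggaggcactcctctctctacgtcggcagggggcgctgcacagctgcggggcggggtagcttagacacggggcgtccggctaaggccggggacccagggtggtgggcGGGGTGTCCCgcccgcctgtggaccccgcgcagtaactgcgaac
IL6: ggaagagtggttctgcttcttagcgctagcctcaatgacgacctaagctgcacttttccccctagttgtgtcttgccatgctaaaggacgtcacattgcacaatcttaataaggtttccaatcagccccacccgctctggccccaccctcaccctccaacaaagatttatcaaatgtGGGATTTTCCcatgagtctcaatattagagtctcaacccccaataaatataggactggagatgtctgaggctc
In the EBI3 window the AP-1 letters lay 118 to 112 bases before the start, and the kappaB consensus was not among its letters. The kappaB match of IL12A, on the minus strand, lay 44 to 35 bases before the start. That of IL6 lay 73 to 64 bases before the start. Of 35116 RefSeq windows of the same length, 5.21% held the kappaB consensus and 6.57% held the AP-1 letters. IL10 has 3 windows in the table, of which 1 held the AP-1 letters and none the kappaB consensus. No window of IL7 was searched, so nothing is said here of motifs before its start. No match overlapped another. A match describes the letters only.

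EBI3 was the gene of the 5 with the strongest contrast between lines and the widest response. Under DMSO its probe set gave 1282.9 intensity units in JVM-2, 652.3 in GRANTA-519 and 599.1 in JVM-13. It gave 278.8 in REC-1 and 218.1 in SP49, and a low 23.1 in HBL-2, while Z-138 and Maver-1 were at 1.1 and 1.7. The lines thus fell into 5 that were above the filter level and 3 below it, with both sensitive lines in the middle of the order. The sensitive lines lay 1.61 ± 2.25 above the insensitive ones on the log2 scale (SE, 2 against 6 lines, limma adjusted p = 0.917), a difference smaller than the spread between lines. Leaving out 1 line at a time moved it from 0.77 (without Z-138) and 0.81 (without Maver-1) to 2.41 (without JVM-2), and a pseudocount of 16 gave 0.95.

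After AFN700 the EBI3 intensity was 51.7 in REC-1, 31.5 in SP49, 84.3 in GRANTA-519 and 4.9 in HBL-2. These are 5.39, 6.92, 7.74 and 4.71 times lower than under DMSO, the last from a level already below the filter. In JVM-2 it was 736.4, which is 1.74 times lower. In JVM-13 it was 1199.5, which is 2.0 times higher, and in Z-138 and Maver-1 it stayed at 1.9 and 1.6. EBI3 was therefore lower in all 4 of the lines REC-1, SP49, HBL-2 and GRANTA-519 by more than the 2-fold mark, moderately lower in JVM-2, higher in JVM-13, and near the floor of the array in the other two lines. Genes at least 2-fold lower made up 1.02% of those tested in REC-1, 1.32% in SP49, 4.46% in HBL-2 and 6.07% in GRANTA-519. Genes at least 2-fold higher made up 25.7% in JVM-13.

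**Figure D1:**
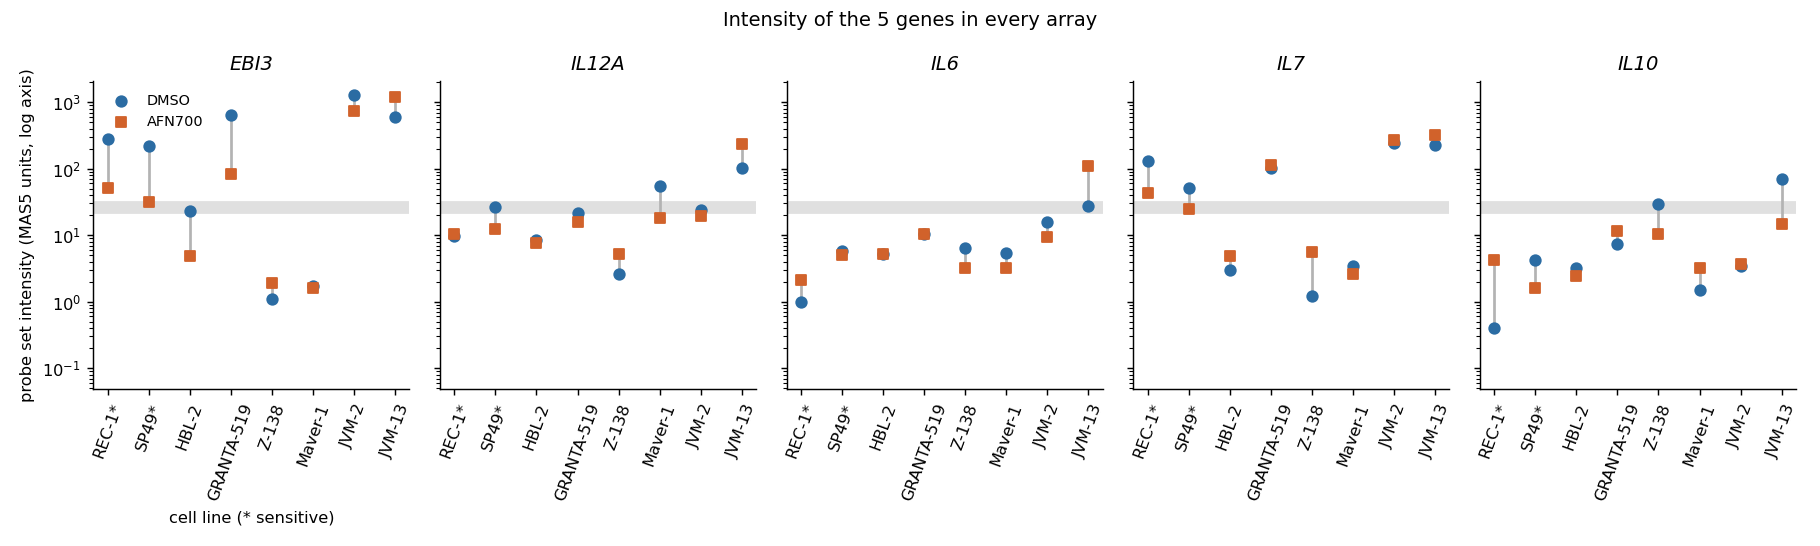
Probe set intensity (MAS5 units, log axis) of the 5 genes in the 8 lines, with DMSO as circles, AFN700 as squares and a bar joining both arrays of a line; the grey band spans the filter level of the arrays, 21.5 to 31.7, and sensitive lines carry an asterisk. EBI3 bars run downward in REC-1, SP49, HBL-2, GRANTA-519 and JVM-2 and upward in JVM-13, while most IL6 and IL10 points lie below the band.

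On the scale of log2(intensity + 3.3), used for all differences below, EBI3 differed between AFN700 and DMSO by -2.90 in GRANTA-519, -2.67 in SP49, -2.36 in REC-1, -1.69 in HBL-2, -0.80 in JVM-2, -0.03 in Maver-1, 0.24 in Z-138 and 1.0 in JVM-13. Over the 8 lines the difference was -1.15 ± 0.41 (SE; lower in 6 of 8 lines). The limma p was 0.0146 and the adjusted p 0.552, so EBI3 was not called. No gene was called in this comparison (0% of 12305), and 8.18% had an unadjusted p under 0.05, so that an unadjusted p of this size was shared by 1006 genes. The 5 genes held 1 of these, EBI3.

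The JVM-13 pair stands apart from the other lines as a whole. Its DMSO array had a median log2 value of 7.25 over the genes tested, against 7.82 to 8.02 on the other 15 arrays, and the correlation between its arrays was 0.924, against 0.964 to 0.990 in the other lines. All the genes tested had a median difference of 0.27 there. With every array centred on its median, the JVM-13 difference of EBI3 was 0.33 in place of 1.0. Without JVM-13, EBI3 was -1.46 ± 0.35 over 7 lines (limma adjusted p = 0.125), and the number of genes called went from 0 to 10, EBI3 not among them. The 3' to 5' ratio of the actin control, a measure of RNA quality, moved most in HBL-2, from 1.90 under DMSO to 16.7 under AFN700. In SP49, a line with a large EBI3 difference, it went from 2.73 to 6.39, and in REC-1 and GRANTA-519 from 5.06 to 4.62 and from 2.78 to 2.72. The part of RNA quality in the EBI3 differences was not tested. With both HBL-2 and JVM-13 left out, a choice made after seeing the data, EBI3 had an adjusted p of 0.102 and 37 genes were called.

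Within the sensitive lines EBI3 was lower by -2.36 and -2.67, and only 22 genes, 0.179% of those tested, were at least 2-fold lower in both. The fitted value was -2.51 ± 0.72, with a limma p of 0.00469 and an adjusted p of 0.99999. By limma 0 genes were called there, and 2.85% had an unadjusted p under 0.05. In the insensitive lines it was -0.70 ± 0.42 (limma adjusted p = 0.758; 0 genes called, 6.04% at an unadjusted p under 0.05), lower in 4 of 6 lines. This value rests largely on GRANTA-519, without which it was -0.26, while without JVM-13 it was -1.04 ± 0.37. The difference between both groups of lines was -1.82 ± 0.83 (limma adjusted p = 0.9997). GRANTA-519, an insensitive line, had the largest EBI3 difference of all, so the values of the sensitive lines lay inside the range of the insensitive ones.

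**Figure D2:**
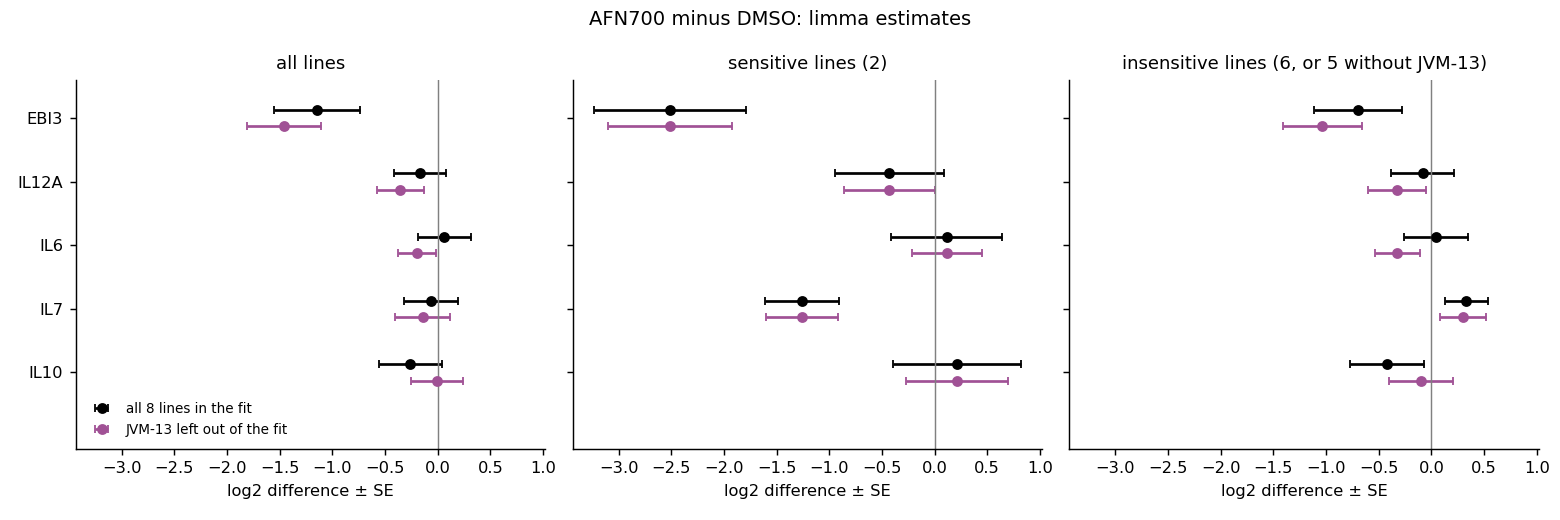
Fitted log2 difference, AFN700 minus DMSO, with its SE as bars for the 5 genes, over all lines, in the 2 sensitive lines and in the 6 insensitive lines, with all 8 lines in black and with JVM-13 left out in purple. EBI3 lies left of 0 in every panel; IL7 lies left of 0 in the sensitive lines at -1.26 and right of it in the insensitive lines at 0.33.

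Under DMSO, IL7 was above the filter level in the same 5 lines as EBI3. Its AFN700 differences, each from 1 pair of arrays, followed another pattern over these lines. Under DMSO its intensity was 239.7 in JVM-2, 230.9 in JVM-13, 132.4 in REC-1, 101.2 in GRANTA-519 and 51.2 in SP49, against 3.4 in Maver-1, 3.0 in HBL-2 and 1.2 in Z-138. Maver-1, HBL-2 and Z-138 were at the floor. Over the 8 DMSO arrays IL7 and EBI3 had a Pearson r of 0.96, which describes mainly the split into the same 5 and 3 lines.

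After AFN700, IL7 was 43.4 in REC-1 and 24.4 in SP49, which are 3.05 and 2.10 times lower, the SP49 value now below the filter level. It was 114.7 in GRANTA-519, 266.4 in JVM-2 and 322.5 in JVM-13, all above their DMSO values, and 5.6, 4.9 and 2.6 in Z-138, HBL-2 and Maver-1. The log2 differences were -1.54 in REC-1 and -0.98 in SP49, and in the other lines they ran from -0.18 in Maver-1 to 0.98 in Z-138. The latter is a change between intensities of 1.2 and 5.6, both below the filter level. The differences of the sensitive and insensitive lines did not overlap, which held for 5.01% of the genes tested. In JVM-13 the IL7 difference was 0.48 as deposited but -0.19 with centred arrays and -0.09 after quantile normalization.

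The fitted IL7 difference was -1.26 ± 0.35 in the sensitive lines and 0.33 ± 0.20 in the insensitive lines (limma adjusted p = 0.99999 and 0.758). The test of the difference between both was -1.59 ± 0.41, with a limma p of 0.00223 that ranked 3 among the 12305 genes. Its adjusted p was 0.9997, no gene was called, and 1.48% of genes had an unadjusted p under 0.05. The value was -1.56 ± 0.40 without JVM-13. The insensitive value was 0.20 without Z-138, whose IL7 was near the floor, and 0.19 with a pseudocount of 16. Over all 8 lines the differences of opposite sign gave -0.07 ± 0.26 (limma adjusted p = 0.961). The DMSO level of IL7 lay 1.41 ± 1.72 higher in the sensitive lines (limma adjusted p = 0.915), which is within the spread between lines. It was 0.76 without REC-1, 0.85 without Z-138, 0.94 without HBL-2 and 0.73 with a pseudocount of 16.

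GRANTA-519 separates EBI3 from IL7 on the same pair of arrays. EBI3 differed there by -2.90 and IL7 by 0.18. In SP49, where both genes were lower than in GRANTA-519 under DMSO, the differences were -2.67 and -0.98.

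**Figure D3:**
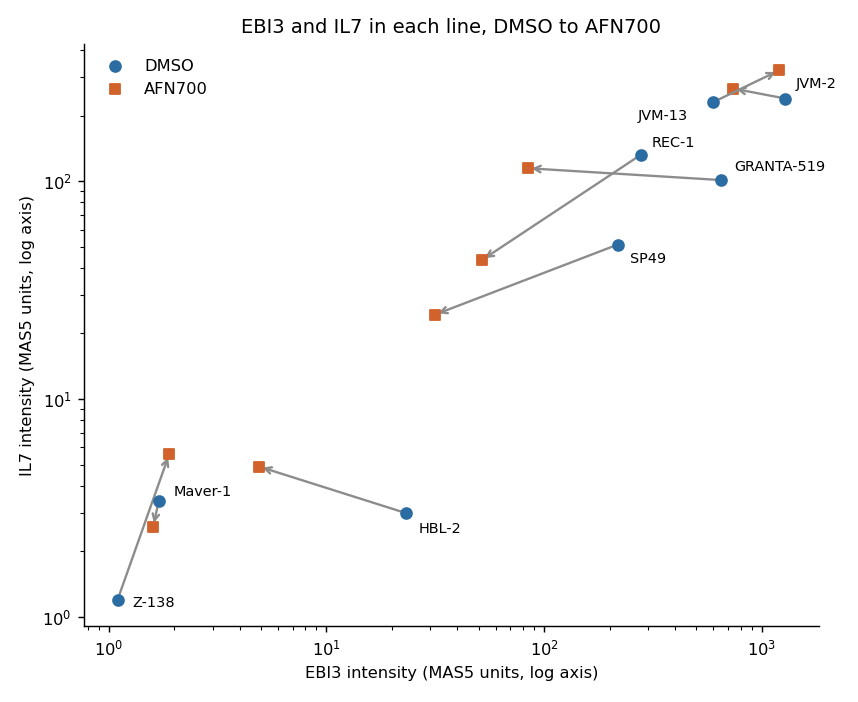
Intensity of EBI3 (horizontal) and IL7 (vertical), both in MAS5 units on log axes, in each line under DMSO (circles) and AFN700 (squares), joined by an arrow from DMSO to AFN700. The arrows of REC-1 and SP49 point down and left, that of GRANTA-519 runs left at nearly level IL7, and Z-138, Maver-1 and HBL-2 lie at IL7 intensities of 1.2 to 5.6.

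IL12A, the possible partner chain of EBI3, followed another order of lines. Under DMSO its intensity was 104.1 in JVM-13, 55.0 in Maver-1, 26.4 in SP49, 23.7 in JVM-2, 21.4 in GRANTA-519, 9.9 in REC-1, 8.4 in HBL-2 and 2.6 in Z-138. After AFN700 it was 233.4, 18.3, 12.6, 19.2, 15.7, 10.3, 7.6 and 5.3 in the same lines. Maver-1, which had next to no EBI3, therefore held the second highest IL12A under DMSO and had the lowest difference, -1.43. JVM-13 had the highest as deposited, 1.14. With centred arrays JVM-13 was at 0.47, below Z-138 at 0.54, and after quantile normalization at 0.39, below Z-138 at 0.49. Genes at least 2-fold lower made up 1.68% of those tested in Maver-1, and genes at least 2-fold higher made up 25.7% in JVM-13. The Maver-1 arrays had the highest actin 3' to 5' ratios of their treatments, 10.3 under DMSO and 18.8 under AFN700, and the part of RNA quality in this difference was not tested. Over 8 lines the IL12A difference was -0.17 ± 0.25 (limma adjusted p = 0.877; lower in 5 of 8 lines).

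Of the other partner chains, IL12B was seen in few lines, IL27 in none and IL23A in most. IL12B, the chain that pairs with IL12A, gave 926.8 in JVM-2, 143.5 in JVM-13 and 17.1 in GRANTA-519 under DMSO and at most 2.0 in the other lines. After AFN700 it was 278.9, 689.2 and 2.7 in those 3 lines. The differences were -1.72 in JVM-2, -1.77 in GRANTA-519 and 2.24 in JVM-13, the same signs as EBI3 in these lines. IL12B was above the filter level on 4 arrays, and both GRANTA-519 values lay below that level. In JVM-13, 25.7% of the genes tested were at least 2-fold higher. Elsewhere IL12B was at most 2.4 after AFN700, too low to compare signs with EBI3. IL27, the partner of EBI3 in interleukin 27, gave 1.1 to 3.2 under DMSO and was above the filter level on none of the 16 arrays. IL23A, which also pairs with IL12B, was above the level on 14 arrays and highest in Z-138 at 329.6, a line with 1.3 units of IL12B. Of 20 partner chains and related cytokines listed, 17 were measured and 4 tested, with 2 positive and 2 negative differences over 8 lines, a median of 0.13 and none called, against a median of 0.06 over all genes tested.

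IL6 was low in all lines but JVM-13. Under DMSO it gave 27.3 in JVM-13, 15.8 in JVM-2, 10.6 in GRANTA-519, 6.4 in Z-138, 5.7 in SP49, 5.4 in Maver-1, 5.3 in HBL-2 and 1.0 in REC-1. After AFN700 it gave 110.0 in JVM-13, 4.03 times its DMSO value, and 10.3 or less in the other lines. The JVM-13 difference was 1.89 as deposited and 1.22 with centred arrays, in a line where 25.7% of genes were at least 2-fold higher. The other lines lay between -0.59 in JVM-2 and 0.33 in REC-1, at intensities below the filter level. Over 8 lines IL6 was 0.06 ± 0.25 (limma adjusted p = 0.965), and without JVM-13 it was -0.20 ± 0.18 (adjusted p = 0.635). In 7 lines IL6 was below the filter level under both treatments, so a lower value could not be read there.

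IL10 was above the filter level on 2 arrays, both DMSO: JVM-13 at 69.9 and Z-138 at 29.2. After AFN700 these lines gave 14.5 and 10.3, which are 4.82 and 2.83 times lower. The other 6 lines gave 0.4 to 7.3 under DMSO and 1.6 to 11.5 after AFN700, all below the level. One of these, REC-1, went from 0.4 to 4.3, a difference of 1.04, in a line where 2.54% of genes were at least 2-fold higher. IL10 was therefore the member that was lower in JVM-13, at -2.04, on the arrays where EBI3, IL12A and IL6 were higher. With centred arrays the JVM-13 value was -2.71. Genes at least 2-fold lower made up 7.01% in JVM-13 and 1.06% in Z-138, where IL10 differed by -1.26. Over 8 lines the difference was -0.26 ± 0.30 (limma adjusted p = 0.822), with 4 lines lower and 4 higher, and it was -0.01 ± 0.25 without JVM-13. Under DMSO, IL12A, IL6 and IL10 lay -0.38 ± 1.05, -1.11 ± 0.74 and -1.33 ± 1.10 apart, sensitive minus insensitive (limma adjusted p = 0.956, 0.907 and 0.907). In that comparison 1 gene, 0.00813% of those tested, was called, and it was none of the 5.

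Some receptor chains were present in every line and others in few. IL12RB1, IL27RA, IL6ST, IL2RG, IL10RA and IL10RB were above the filter level on all 16 arrays. IL27RA, the specific chain of the interleukin 27 receptor, ran from 34.8 to 331.2 under DMSO. IL6ST, the shared signal chain for interleukins 6 and 27, ran from 35.1 in HBL-2 to 1244.1 in JVM-13. IL7R was above the level on 4 arrays, with its highest DMSO values at 70.6 in REC-1 and 31.7 in JVM-13. REC-1 and JVM-13 are also lines with IL7, while GRANTA-519 and JVM-2 had IL7 at 101.2 and 239.7 with IL7R at 11.7 and 16.1. IL12RB2, the signal chain for interleukin 12, was above the level on none.

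Of 14 receptor chains measured, 11 were tested, 6 with positive and 5 with negative differences over 8 lines, a median of 0.03 and none called. The smallest p was that of IL6R, the interleukin 6 binding chain, at -0.43 ± 0.21 (limma adjusted p = 0.623). It was highest in SP49 under DMSO at 584.5, which became 267.1 after AFN700. IL11RA differed by 0.62 ± 0.31 (limma adjusted p = 0.627), and by 0.32 without JVM-13 and 0.36 with a pseudocount of 16. In JVM-13 the receptor chains had a median difference of 0.90, with 9 of 11 higher, on the array pair whose whole distribution was shifted.

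**Figure D4:**
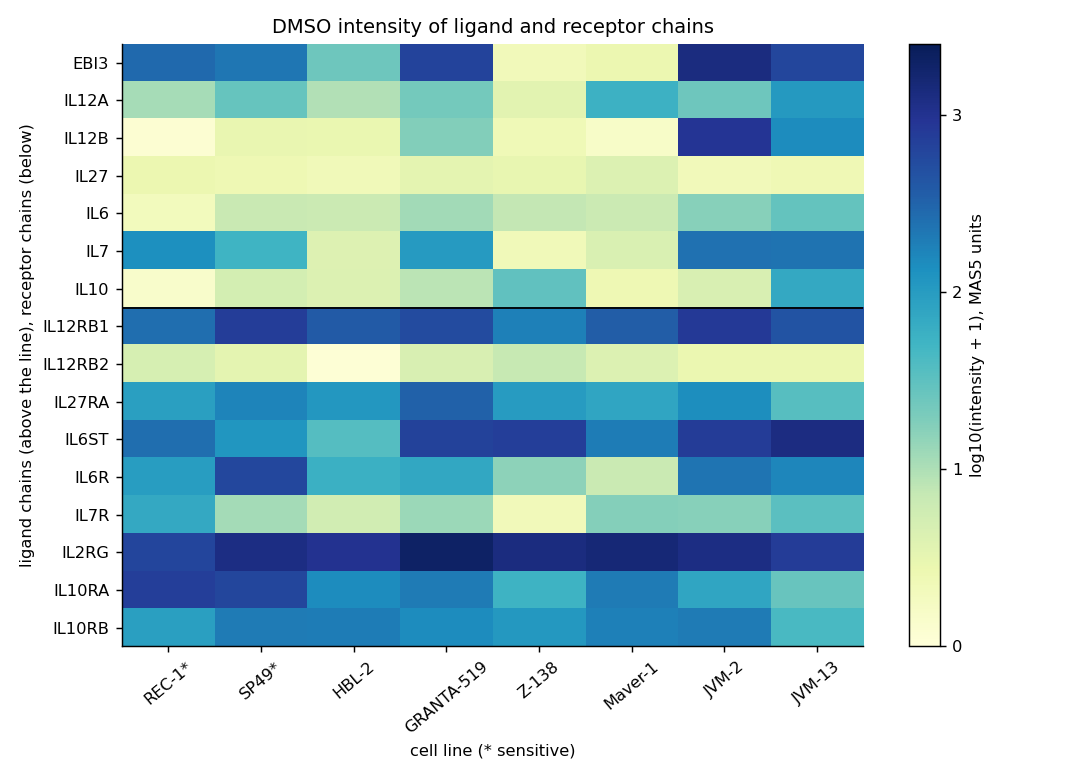
DMSO intensity of ligand chains and receptor chains (rows) in the 8 lines (columns), coloured by log10(intensity + 1); colours compare lines within a row, since probe sets of different genes differ in brightness. EBI3 and IL7 are dark in REC-1, SP49, GRANTA-519, JVM-2 and JVM-13, IL12B only in JVM-2 and JVM-13, and IL27 and IL12RB2 are pale in all 8 lines.

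JAK and STAT genes, which carry the signal of all these receptors, were split. Of 9 tested, 5 had positive and 4 negative differences, with a median of 0.12 and none called. STAT4, the factor of interleukin 12 signalling, had the smallest p at 0.51 ± 0.25 (limma adjusted p = 0.627). It rests on SP49, where STAT4 went from 13.3 to 84.3, and was 0.24 without that line. Among 7 STAT response genes tested, a list chosen with earlier results of these data known, 4 differences were positive and 3 negative (median 0.23). None was called, and 4 had an unadjusted limma p under 0.05, against 8.18% of all genes tested. PIM1, a kinase gene induced by cytokines, was at -0.53 ± 0.17, BATF at -0.48 ± 0.17 and JUNB at -0.46 ± 0.17, both AP-1 factors, while SOCS3, the feedback inhibitor of gp130 signalling, was at 0.65 ± 0.25 (limma adjusted p from 0.508 to 0.563). SOCS3 intensities went from 12.1 to 58.4 in Maver-1 and from 5.2 to 19.4 in GRANTA-519, and the gene was higher in 6 of 8 lines. With the mean of its probe sets in place of the brightest, SOCS3 was at 0.087.

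Over the 8 lines, other cytokine genes of activated B cells, a list chosen with earlier results of these data known, shared the direction of EBI3. All 10 tested had negative differences over 8 lines, with a median of -0.47 against 0.06 over all genes tested, of which 37.1% were negative. In single lines the median was 0.35 in JVM-13 (6 of 10 higher), 0.18 in Maver-1 (8 of 10 higher) and below 0 elsewhere. The median over lines stayed below 0 under all 18 alternative settings, which reuse these arrays. None of the 10 genes was called, and 4 had an unadjusted limma p under 0.05, against 8.18% of all genes tested. LTA (lymphotoxin alpha) differed by -0.79 ± 0.24, CCL22, a T-cell attracting chemokine, by -0.93 ± 0.32, LTB by -0.60 ± 0.21 and CXCL10, an interferon-inducible chemokine, by -1.74 ± 0.62 (limma adjusted p from 0.466 to 0.552). With the mean of its probe sets LTB was at -0.13, and with a pseudocount of 16 LTA was at -0.52. CXCL10 went from 952.2 to 38.4 in GRANTA-519 and from 246.4 to 3.0 in REC-1, and was at 4.0 or less under DMSO in Z-138, HBL-2, Maver-1 and JVM-13.

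The NF-kB reporter genes, which encode inhibitors and targets of the pathway, were also all negative over the 8 lines. Their 7 differences had a median of -0.51, which stayed below 0 under all 18 alternative settings, and none was called. Those settings reuse these arrays, and this list too was chosen with earlier results of these data known. In single lines the median was 0.99 in JVM-13 (6 of 7 higher), 0.06 in Maver-1 (5 of 7 higher) and below 0 elsewhere. BCL2A1, a survival gene, was at -0.51 ± 0.15, TNFAIP3, the feedback inhibitor A20, at -0.90 ± 0.28, NFKBIA, which encodes IkB-alpha, at -0.63 ± 0.29 and CD83, a B-cell activation marker, at -0.25 ± 0.15 (limma adjusted p from 0.466 to 0.673). CD83 was at -0.16 without JVM-2 and -0.39 without JVM-13. NFKBIA differed by -1.63 in SP49, -1.31 in REC-1, -1.28 in GRANTA-519 and -0.92 in JVM-2. HBL-2 had -1.24. The remaining values were 0.01 in Maver-1, -0.11 in Z-138 and 1.47 in JVM-13. The same 5 lines had the lowest differences for NFKBIA and for EBI3, and JVM-13 was the highest line for both, each from 1 pair of arrays. In HBL-2, EBI3 was below the filter level under both treatments. NFKBIA was abundant in Z-138 and Maver-1, at 509.5 and 379.6 under DMSO, where EBI3 was at 1.1 and 1.7.

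**Figure D5:**
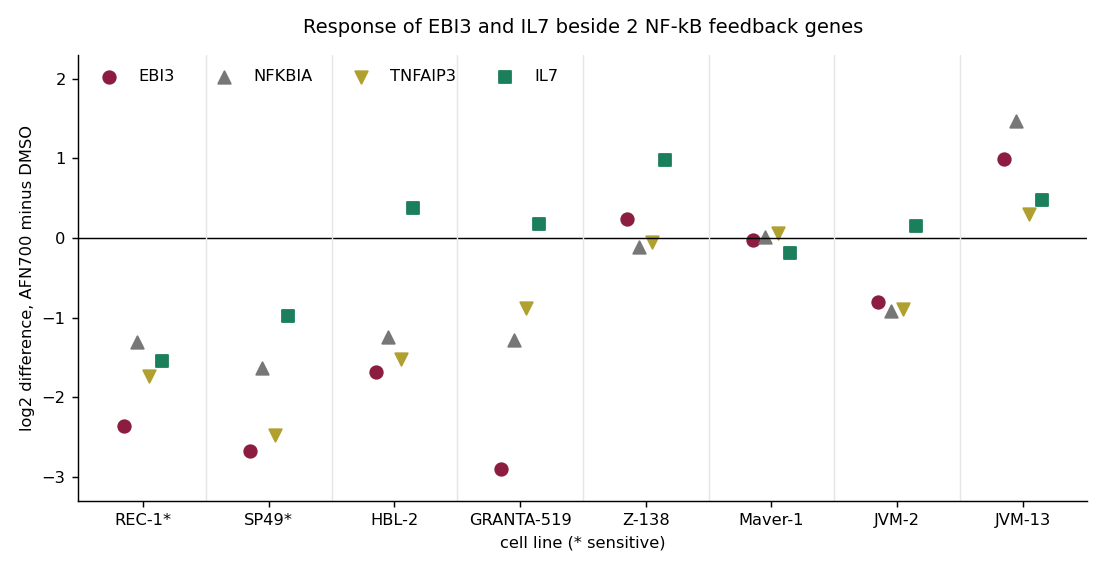
Log2 difference, AFN700 minus DMSO, of EBI3, IL7 and the NF-kB feedback genes NFKBIA and TNFAIP3 in each line, 1 pair of arrays per line; sensitive lines carry an asterisk. EBI3 lies beside or below NFKBIA in REC-1, SP49, HBL-2 and GRANTA-519, and IL7 lies below -0.5 in REC-1 and SP49 but not in GRANTA-519, where it is at 0.18.

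Among factors known to act on cytokine genes, 4 of 11 differences over 8 lines were positive and 7 negative, with a median of -0.09 and none called. NFKB1, the p50 subunit of NF-kB, was at -0.48 ± 0.15, IRF4, a factor of activated B cells, at -0.46 ± 0.19, RELB, the subunit of the alternative NF-kB route, at -0.39 ± 0.25 and MAF, a known activator of IL10, at 0.22 ± 0.17 (limma adjusted p from 0.472 to 0.732). RELB was at -0.22 without HBL-2 and -0.59 without JVM-13, and MAF was at 0.010 with the mean of its probe sets, 0.12 with a pseudocount of 16 or with centred arrays, and 0.14 without REC-1. Of 4 other genes known to be induced by Epstein-Barr virus, 2 were positive and 2 negative, and the smallest p was that of FCER2, which encodes CD23, at -0.27 ± 0.17 (limma adjusted p = 0.674).

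The genes whose differences were most like those of EBI3 over the 8 lines, by Pearson r, were PRKCD (0.94), RSPH1 (0.94), DRC9 (0.93), ETV4 (0.92) and NFKBIA (0.91). Other NF-kB reporter genes stood lower in this order: ICAM1 at rank 14 (0.90), TNFAIP3 at rank 46 (0.85) and TRAF1 at rank 1170 (0.65). All points share the same 8 pairs of arrays, JVM-13 included. PRKCD, which encodes protein kinase C delta, differed by -1.14 in GRANTA-519 and by 0.41 in JVM-13, its extremes, as for EBI3. RSPH1, a gene of cilia, went from 92.9 to 18.3 in SP49 and from 49.8 to 150.9 in JVM-13. DRC9 was higher after AFN700 in all 8 lines, from 0.09 in GRANTA-519 to 1.48 in JVM-13, so that likeness of pattern here did not mean the same sign.

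For IL7 the genes most alike over the 8 differences were MCL1 (r of 0.92), C6orf52 (0.91), MEF2A (0.91), PHEX (0.91) and AP1G1 (0.90). MCL1, a survival gene, differed by -0.30 in REC-1 and -0.14 in SP49, and by -0.02 to 0.23 elsewhere, a much narrower range than that of IL7. For IL12A they were DGAT2, NCALD, ENTR1, ETFBKMT and HESX1 (r of 0.93 to 0.95). For IL6 they were LINC00963, ZNF490, ADAT2, TANGO2 and MR1 (0.98 to 0.99), and for IL10 NBDY, BLOC1S2, TPM1, LOC105370943 and LOC100289333 (0.95 to 0.98). The IL6 set rests largely on JVM-13, which lies far from the other lines in its IL6 difference.

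Over the DMSO levels the genes most like EBI3 were ACKR3 (0.99), ZNF462 (0.96), IL7 (0.96), SGPP2 (0.96) and SH3BP2 (0.96). ACKR3, which encodes a scavenging chemokine receptor, gave 1704.4 in JVM-2 and 519.3 in JVM-13, and 4.9 in Z-138 and 9.1 in Maver-1. Its difference was only -0.29 in REC-1 and -0.54 in SP49, where EBI3 differed by -2.36 and -2.67. For IL7 they were SRGN (0.97), ACKR3 (0.96), EBI3 (0.96), TPST2 (0.96) and ZBTB32 (0.96). For IL12A they were MYO9A, PPP2CB, ZHX3, NPEPL1 and MTA3 (0.93 to 0.97), for IL6 CETP, POLK, LINC00515, PNMA1 and RPL35A (0.96 to 0.99), and for IL10 RALY, ZNRF1, RCL1, CAPRIN1 and MIPEPP3 (0.94 to 0.95). Like IL12A, IL6 and IL10, every gene of these sets was highest in JVM-13 under DMSO, the array with the lowest median. In JVM-13, RALY went from 1908.6 under DMSO to 729.8 after AFN700, and POLK from 1023.2 to 339.8.

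Of the B-cell markers 5 were measured (MS4A1, CD79A, CD79B, PAX5 and CD22), and each was above the filter level on at least 1 array. Their summed DMSO intensity ran from 5140.5 to 10250.8 over the lines. A sum does not show that each marker was present in each line. The mantle cell lymphoma genes CCND1 and SOX11 were at 394.4 or more and 584.0 or more under DMSO in 6 lines. JVM-2 had 78.7 for CCND1 and 0.1 for SOX11, and JVM-13 had 4.8 and 1.4, so SOX11 was below the filter level in both lines and CCND1 in JVM-13. CD5 exceeded the level in Maver-1 only. Of the T-cell markers 4 of 5, of the myeloid markers 3 of 6, of the fibroblast markers 1 of 4 and of the epithelial markers 4 of 4 passed the level on some array. Their summed DMSO intensities ran from 7.9 to 603.4, 21.1 to 275.5, 14.5 to 622.9 and 21.5 to 412.3.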

How the data were processed

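Human B-cell lines, 1 DMSO and 1 AFN700 array per line, were measured on a 3' expression array. The authors deposited linear probe set intensities. The submitters' processing notes name MAS5, whose version is not given in the sources used here. Each array has a mean of 150.0 after 2% is trimmed at each end. Of 54675 probe sets, 41097 had 1 gene in the platform table, 1801 several and 11777 none; symbols were updated by Entrez number with the GRCh38.p14 RefSeq table. The 62 control probe sets were left out, and the probe set of highest mean stood for a gene. Intensities became log2(intensity + 3.3), the 25th percentile of all values being the pseudocount, so differences of low genes are understated.

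Genes that exceeded the 60th percentile of 2 or more arrays were tested with limma 3.58.1 in R 4.3.3 (lmFit, eBayes with trend), which was tested on simulated data. The cell line was a fixed block, since both arrays of a line come from that line by the labels, and the arrays of a pair correlated at 0.924 to 0.990. Terms for sensitive and insensitive lines gave the responses and their difference; the spread is shared by all lines. The DMSO comparison used 8 arrays. Adjusted p-values are Benjamini-Hochberg over all genes tested, with 0.05 as the threshold. The number of arrays limits the precision, and no detection calls were used.

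The genes and lists were chosen with earlier results of these data known. Named beside the 5 genes are the 5 genes of highest Pearson r with each, over differences and over DMSO levels, and at most 4 genes of each list, those with the smallest p; for the partner chain, receptor, JAK and STAT, and virus-induced lists, fewer were named after their values were seen, and other genes of these lists were chosen for their role. Alternatives changed the pseudocount, scaling, filter, probe set rule, trend, block and lines. Promoters are from RefSeq. Of the 5 genes, 4 are shown or counted there, and IL7 was not searched.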

Additional observations from a re-analysis of the deposited data

Results flagged for a closer look

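Levels under DMSO, levels under AFN700 and differences of the 5 genes gave 15 sets of 8 lines. In 3 of them JVM-13 lay apart, with a gap to the next line above Dixon's critical share of the range. For 1 set of normal values chance gives about 1 in 20. The sets are not independent, since each difference comes from both levels, and most IL6 values lay below the filter level. The 3 of 15 therefore cannot be set against that rate. The IL12A level under AFN700 in JVM-13 was 7.89 on the log2 scale, with a gap of 0.71 of the range. The IL6 level under AFN700 was 6.82 (0.697 of the range). The IL6 difference was 1.89 (0.63 of the range), and 1.22 with centred arrays. The JVM-13 DMSO array had the lowest median of all arrays, and its part in these values was not tested.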

How the results depend on the processing

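EBI3 over 8 lines, in both groups and in their difference kept its sign under all 18 alternatives, from -1.46 to -0.90 over 8 lines and from -1.04 to -0.26 in the insensitive lines, and was called under none. IL7 kept its sign in the sensitive lines, the insensitive lines and their difference, also under all 18 (the difference from -1.87 to -1.22). Without the replicate block, which ignores that both arrays come from 1 line, EBI3 over 8 lines had an SE of 1.43 and a limma p of 0.432, and no count of genes called in the AFN700 comparisons changed from 0. The medians of the partner chains (-0.12 to 0.33), receptor chains (-0.07 to 0.08), JAK and STAT genes (-0.24 to 0.16), transcription factors (-0.23 to 0.09) and virus-induced genes (-0.23 to 0.05) took either sign. Without HBL-2 and JVM-13, IL6R was at -0.67, IL11RA at 0.19, BATF at -0.31, MAF at 0.38, CD83 at -0.38 and FCER2 at -0.40.

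Values near 0 changed sign, and the cause was not tested. Over 8 lines IL6 was -0.065 after quantile normalization, -0.036 with centred arrays and -0.23 without HBL-2 and JVM-13, IL7 was 0.0051 with a pseudocount of 1, and IL10 was 0.021 without HBL-2 and JVM-13. In the insensitive lines IL6 was -0.030 with a pseudocount of 1, -0.10 after quantile normalization, -0.084 with centred arrays and -0.40 without HBL-2 and JVM-13, and its difference between groups was -0.11 with a pseudocount of 16. Leaving out lines (each in turn, or HBL-2 with JVM-13, a choice made after seeing the data) gave these ranges. Over 8 lines IL12A ran from -0.40 to 0.012, IL6 ran from -0.23 to 0.16, IL7 ran from -0.23 to 0.14 and IL10 ran from -0.45 to 0.021. In the sensitive lines IL12A ran from -0.90 to 0.043, IL6 ran from -0.10 to 0.33 and IL10 ran from -0.61 to 1.04. In the insensitive lines IL12A ran from -0.38 to 0.19 and IL6 ran from -0.40 to 0.17. For the difference between groups IL12A ran from -0.82 to 0.13, IL6 ran from -0.14 to 0.52 and IL10 ran from -0.19 to 1.46. For the DMSO level IL12A ran from -0.96 to 0.21. IL6 and IL10 have no value where 4 arrays must pass the filter.

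Genes called over 8 lines numbered 0 to 10 with 1 line left out (10 without JVM-13) and 37 without HBL-2 and JVM-13, which gave 5 in the sensitive lines. In the DMSO comparison, with 1 gene called, there were 3 with a pseudocount of 16, 5 with no filter, 0 with the mean of probe sets, 8 without the trend, 0 to 46 with 1 line left out (46 without SP49) and 0 without HBL-2 and JVM-13. The number of arrays and the low signal of IL6 and IL10 limit what can be read.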
